A study of Homo sapiens with 12 samples.

Results

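The PEA3 subfamily of ETS transcription factors, made up of ETV1, ETV4 and ETV5, was followed at the mRNA level in hepatocellular carcinoma (HCC) cells treated with inhibitors of mTOR and SHP2. The members were chosen by name, with earlier results of these data known, and all 3 were found among the 11548 genes of the expression table. RNA from Hep3B, MHCC97H and Huh7, established human HCC cell lines whose genotype was labelled WT, was sequenced in 12 libraries. Each line was left untreated or received AZD8055 (an inhibitor of the mTOR kinase, 100 nM as a single drug), compound #57 (an allosteric inhibitor of the phosphatase SHP2, 5 µM where given together with AZD8055 to Hep3B and Huh7) or the combination of both drugs. MHCC97H cells were exposed for 24 h and the other lines for 48 h, whereby an effect of time cannot be told apart from one of the line. Each condition was represented by 1 library, and the 3 cell lines are therefore the only replicates of a treatment.

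PEA3 factors bind DNA through an ETS domain and activate genes of growth, branching and invasion. They stand at the end of the chain that runs from receptor tyrosine kinases over SHP2, RAS and MEK to ERK. ERK lifts the repression of their genes by capicua (CIC) and modifies the proteins, whose amounts are kept low by the ubiquitin ligase COP1. Their mRNA is widely read, together with that of the feedback inhibitors DUSP6 and Sprouty, as an output of ERK signaling.

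The libraries held between 10659952 and 15957252 reads, of which 98.6 to 99.3% fell on genes of the table. Levels are given as normalised reads, that is reads scaled to 10000000 per library, with exact Poisson 95% intervals, and changes within a cell line as the log2 ratio of scaled reads, with a Clopper-Pearson 95% interval. These intervals cover counting error only and say nothing about the spread between cultures. The 8 hepatic markers were abundant in Hep3B and Huh7, with sums between 208960 and 576958 normalised reads, but not in MHCC97H, where the sums lay between 1256 and 2244 and TTR had 0 reads in untreated cells. Of the markers of other cell types, the 4 immune genes were not in the table. Of 4 endothelial genes, 1 was in it (PECAM1) and lay between 4.30 and 542. Of 5 fibroblast genes, 3 were in it, and their sum lay between 99.0 and 1633.

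ETV1 lies on chromosome 7 of hg38 (chr7:13891229-13991425, minus strand, GENCODE release 44), and its canonical transcript has 14 exons and 6459 bases. ETV4 lies on chromosome 17 (chr17:43527844-43579620, minus strand), with 13 exons and 2335 bases. ETV5 lies on chromosome 3 (chr3:186046314-186110318, minus strand), with 13 exons and 4082 bases. No annotated gene overlapped ETV1. ETV4 overlaps DHX8 on the opposite strand, which had between 587 and 1072 normalised reads and differed by -0.34 to 0.05 (log2) between the libraries of the pairs that add compound #57. ETV5 overlaps DGKG and a Metazoa_SRP RNA on its own strand and ETV5-AS1 on the opposite strand. DGKG and ETV5-AS1 were not in the table, and the Metazoa_SRP RNA was not analysed here. Reads shared with genes of the same strand cannot be told apart by strand, and whether reads were counted by strand is not given in the sources used here.

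RefSeq promoter windows (GRCh38.p14, 250 bases before to 50 after a start site) were matched for 1 of the 3 members, ETV1, which has 6 start sites. The 250 bases before its outermost start site, chr7:13991426-13991675 on the minus strand, are shown because they hold a capicua octamer, the DNA word of the repressor that ERK removes from PEA3 genes. The octamer is in capitals.

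ETV1 promoter: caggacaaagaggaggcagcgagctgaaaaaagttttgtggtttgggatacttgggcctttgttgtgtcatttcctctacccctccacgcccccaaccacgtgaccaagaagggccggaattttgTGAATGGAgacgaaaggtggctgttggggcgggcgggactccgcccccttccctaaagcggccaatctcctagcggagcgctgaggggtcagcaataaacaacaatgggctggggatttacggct

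Both strands of each window were searched for the capicua octamers TGAATGAA and TGAATGGA, for the ETS core CCGGAA and its longer form CCGGAAGT (which contains the core), and for the AP-1 site TGANTCA. TGAATGGA was found once, 125 bases before the outermost start site. It occurred in 1.03% of the 35116 windows of all genes, TGAATGAA in 1.65% and either of them in 2.63%. The ETS core stood in 3 of the 6 ETV1 windows, between 136 and 141 bases before the start, but at 2 positions of the genome, since a pair of these windows overlap and share their match. It occurred in 17.2% of all windows. The other motifs, which occurred in 4.14% (CCGGAAGT) and 7.71% (TGANTCA) of all windows, had no match in the ETV1 windows. A match is a description of these letters and not a measured binding site.

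ETV1 was the least abundant member per kb of transcript in every library except that of Hep3B cells with compound #57. In untreated cells it reached 470 normalised reads in Hep3B, 284 in Huh7 and 105 in MHCC97H, and with AZD8055 420, 162 and 194 in the same order. With compound #57 the values were 52.5, 59.8 and 42.1, and with the combination 47.8, 56.8 and 42.1. All 6 libraries with compound #57 thus lay below the 6 without it, and with compound #57 the Poisson intervals of the 3 lines overlapped, which they did not in untreated cells. A lower level in bulk RNA cannot be told apart from a loss of cells that express the gene.

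ETV4, the member for which the subfamily is named, had 401 normalised reads in untreated Hep3B cells, against 473 for MHCC97H and 1134 for Huh7. With AZD8055 it stood at 658, 780 and 935 in the same order. With compound #57 the values were 8.96, 130 and 190, and with the combination 23.5, 144 and 235. The libraries with compound #57 again lay below all those without it. The value in Hep3B rests on 14 reads with compound #57 and on 29 with the combination, against 427 in untreated cells.

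ETV5, which is close to ETV1 and ETV4 in its DNA-binding domain, had 475 normalised reads in untreated Hep3B cells, against 870 for MHCC97H and 1245 for Huh7. With AZD8055 the values were 389, 963 and 736. With compound #57 they were 6.40, 458.3 and 283, and with the combination 44.6, 282 and 222. Hep3B kept 10 reads with compound #57, whereas MHCC97H kept a level within the range of Hep3B cells without the drug, so the libraries with and without compound #57 overlapped. Separation of all 6 libraries from the other 6 was seen for 2 members, ETV1 and ETV4, among 15 genes of the table (0.13%).

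**Figure D1:**
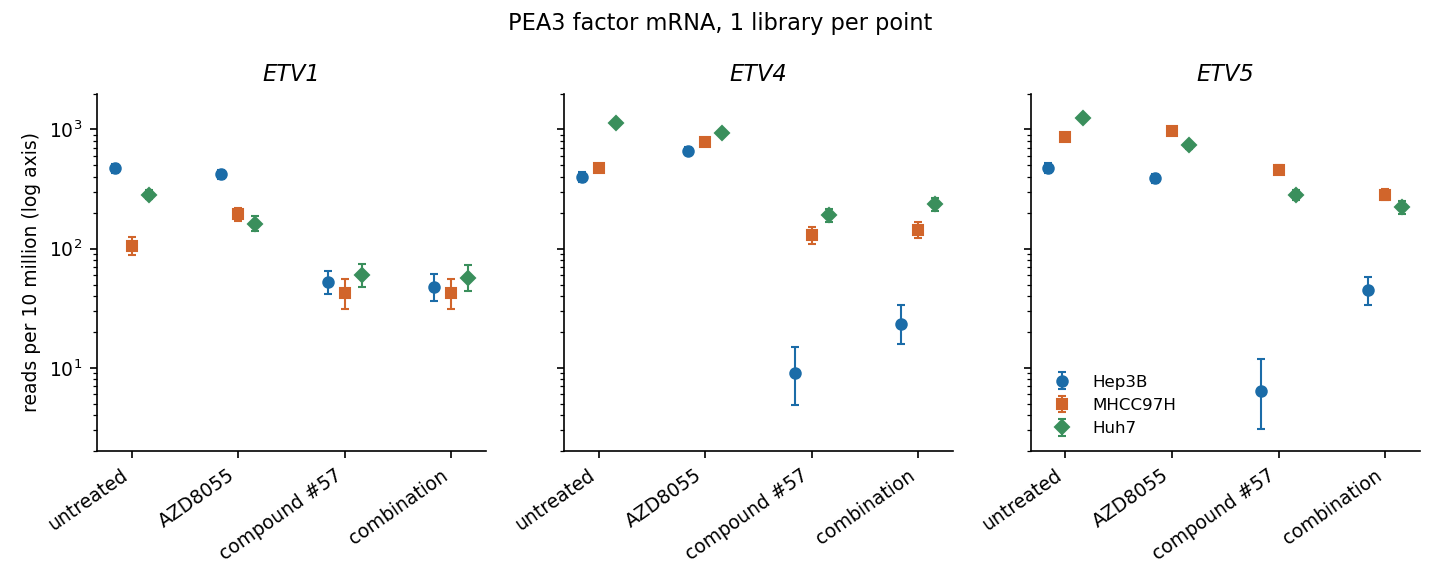
Normalised reads (log axis) of ETV1, ETV4 and ETV5 by treatment, with 1 library per point and exact Poisson 95% intervals as bars. Points with compound #57 or the combination lie below those without it in every line, and the lowest are ETV4 (8.96) and ETV5 (6.40) in Hep3B.

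Levels of different genes were compared per kb of the canonical transcript. In untreated cells, ETV4 was the most abundant member in Hep3B (172 normalised reads per kb, against 116 for ETV5 and 72.8 for ETV1) and in Huh7 (486, against 305 and 43.95). In MHCC97H, ETV4 and ETV5 stood close together at 203 and 213, and ETV1 at 16.3. The summed level of the 3 members was 361 for Hep3B, 432 for MHCC97H and 834 for Huh7. With compound #57 the sums were 13.5, 174 and 160, and with the combination 28.4, 137 and 164. Hep3B had the lowest sum under all 4 treatments. The make-up of its sum differed between treatments, as ETV1 took 20.2% of it in untreated Hep3B cells and 60.1% with compound #57. In MHCC97H the share of ETV5 was 49.3% untreated and 64.4% with compound #57, and that of ETV4 46.9% and 31.9%. In Huh7 the shares of ETV4 were 58.2 and 50.9%, and those of ETV1 5.27 and 5.79%. With the combination, ETV1 took 26.1% of the sum in Hep3B. ETV5 and ETV4 then took 50.4 and 44.9% in MHCC97H, and ETV4 and ETV1 61.4 and 5.37% in Huh7. The transcript forms in use were not measured, so that the per kb values assume the canonical lengths.

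**Figure D2:**
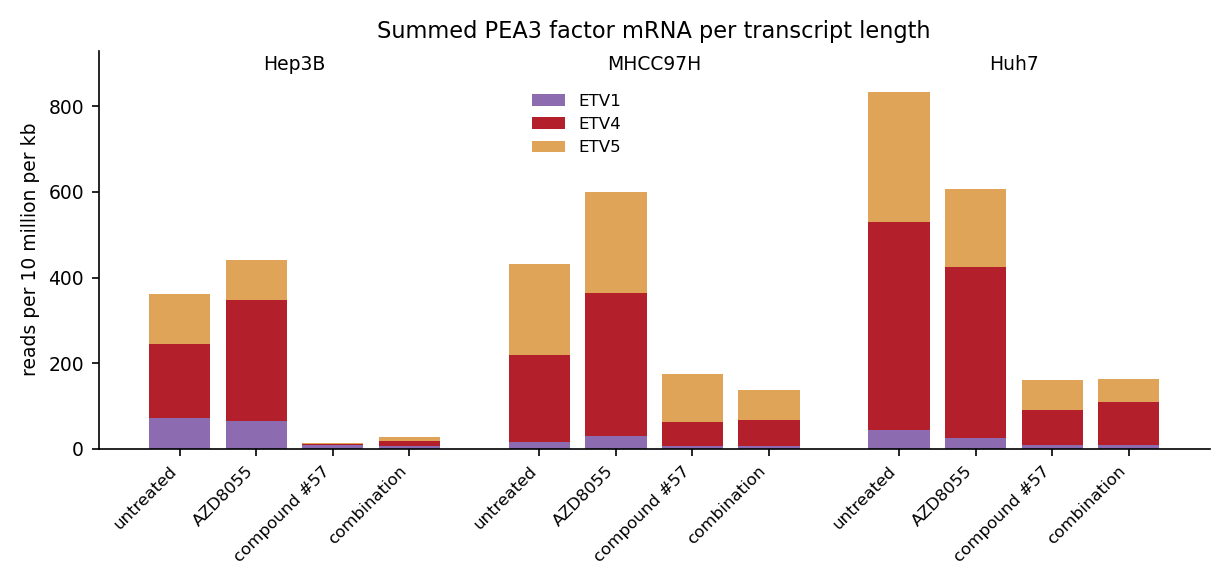
Summed level of the 3 PEA3 factors in normalised reads per kb of canonical transcript, stacked by gene, for each of the 12 libraries. The sums of untreated cells were 361, 432 and 834 in Hep3B, MHCC97H and Huh7, and with compound #57 13.5, 174 and 160.

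The effect of SHP2 inhibition was read in 6 pairs of libraries that share no library, compound #57 against untreated and the combination against AZD8055 in each line. All 3 members were lower in 6 of 6 pairs, as were 9.16% of all genes. A level at least 2-fold lower in all 6 pairs was rarer, with 5 genes (0.0433%), namely ETV1, ETV4, the ERK phosphatase DUSP6, the integrin subunit ITGA2 and the ecto-nucleotidase NT5E. ETV5 missed this threshold in 1 pair, MHCC97H with compound #57 alone, at -0.92 (log2 value difference). With the libraries centred on their medians, ETV5 joined these genes. The pair with the smallest difference stood at -1.86 for ETV4, further from 0 than for any other gene that was lower in all pairs, and at -1.30 for ETV1, which held rank 4 by this measure.

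Within Hep3B, ETV5 was 74.1-fold lower with compound #57 than untreated (log2 ratio -6.21, 95% interval -7.28 to -5.32), ETV4 44.7-fold (-5.48, -6.37 to -4.72) and ETV1 8.95-fold (-3.16, -3.52 to -2.82). They held ranks 3, 5 and 25 from the lowest among all genes, of which 3.75% were at least 2-fold lower. In the presence of AZD8055 the order was different. ETV4 was 28.0-fold lower (-4.81, -5.40 to -4.27), while ETV1 (-3.13, -3.55 to -2.74) and ETV5 (-3.12, -3.55 to -2.72) differed from each other by less than the counting error, with 3.33% of all genes at least 2-fold lower.

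Within Huh7, the log2 ratios with compound #57 were -2.58 for ETV4 (-2.77 to -2.39), -2.25 for ETV1 (-2.61 to -1.90) and -2.14 for ETV5 (-2.30 to -1.98), and 1.52% of all genes were at least 2-fold lower. With the combination against AZD8055 they were -1.99 for ETV4, -1.73 for ETV5 and -1.51 for ETV1, with 1.84% of genes past 2-fold. Thus all members were at least 2.85-fold lower in both Huh7 pairs.

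Within MHCC97H, the log2 ratios with compound #57 alone were -1.86 for ETV4 (-2.13 to -1.60), -1.32 for ETV1 (-1.83 to -0.84) and -0.92 for ETV5 (-1.08 to -0.77), with 0.84% of all genes at least 2-fold lower. Against AZD8055 the combination was lower by more, with -2.44 for ETV4 (-2.67 to -2.21), -2.20 for ETV1 (-2.66 to -1.77) and -1.77 for ETV5 (-1.94 to -1.60), and 1.13% of genes past 2-fold. The intervals of the 2 pairs of a line did not overlap for ETV5 in any of the lines, nor for ETV4 in MHCC97H and Huh7, which sets these pairs apart by more than the counting error alone.

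**Figure D3:**
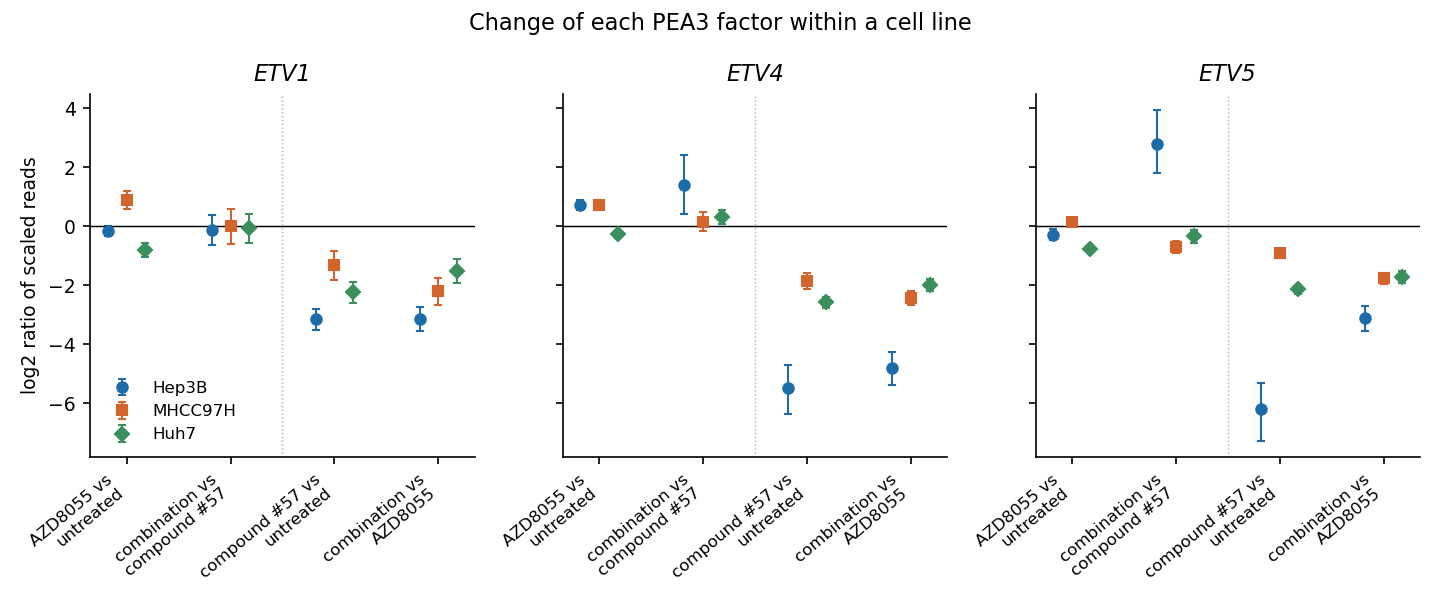
Log2 ratio of scaled reads of ETV1, ETV4 and ETV5 within each cell line for AZD8055 against untreated, the combination against compound #57, compound #57 against untreated and the combination against AZD8055, with Clopper-Pearson 95% intervals of the reads as bars. The contrasts right of the dotted line, which add compound #57, lie below 0 for every member and line, from -6.21 to -0.92, and those left of it lie on both sides of 0.

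Across the lines, the effect of compound #57 was averaged over AZD8055 absent and present in a limma model of all 12 libraries with cell line and treatment as terms. ETV4 fell by 3.16 (log2, SE 0.46, 95% interval -4.18 to -2.13, limma adjusted p = 0.0137), the third largest fall of all genes. ETV5 fell by 2.61 (SE 0.57, -3.88 to -1.34, adjusted p = 0.0267, rank 5) and ETV1 by 2.24 (SE 0.27, -2.85 to -1.64, adjusted p = 0.0101, rank 11). These intervals and p-values count both pairs of a line as separate replicates. For a gene whose fall differs between lines, the intervals can be too narrow and the p-values too small. By line, the fitted ETV4 effect was -5.04 (Hep3B), -2.28 (Huh7) and -2.14 (MHCC97H). No test with a single value per line was run. Of all genes, 386 (3.34%) were lower and 799 higher at an adjusted p under 0.05, against 680 lower and 587 higher with the libraries centred on their medians, where all 3 members passed as well. The calls depend on which lines are in the fit. Without Huh7, no member passed (adjusted p = 0.130 for ETV1, 0.136 for ETV4 and 0.182 for ETV5) and 0 genes of the table did, and without Hep3B only ETV4 passed (ETV4 0.0353, ETV1 0.143, ETV5 0.101), 1 of 2 genes called in all. Without MHCC97H all 3 members passed, among 2359 genes in either direction. With compound #57, the summed hepatic markers were higher in all 6 pairs, for example 576958 against 356131 normalised reads in Hep3B, 2146 against 1256 in MHCC97H and 486608 against 414898 in Huh7. The 8 markers did not move as one, since ALB, APOA1, TF and HNF4A were higher in 6 of 6 pairs, while APOB was lower in 5 of 6 (-0.87 averaged, limma adjusted p = 0.0277) and TTR in 4 of 6 (-0.29, adjusted p = 0.451). The sum of the fibroblast genes was higher in 5 of 6 pairs, with 289 against 100.4 and 225 against 99.0 in Hep3B, 838 against 407 and 728 against 244 in MHCC97H, and 1262 against 1086 in Huh7, but 1329 against 1633 in Huh7 with AZD8055 present. PECAM1 was higher in both pairs of Hep3B and of MHCC97H and lower in both of Huh7. The part of these markers in the result was not tested.

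For the single contrasts, compound #57 against untreated gave -3.25 for ETV4, -3.02 for ETV5 and -2.22 for ETV1 (limma adjusted p = 0.0912, 0.105 and 0.0912). None of the members passed, and neither did any other gene with a lower level (0%), although 2501 genes in either direction had an unadjusted p under 0.05 and voom on the whole reads called 90 genes, ETV1 among them (adjusted p = 0.0436). Without MHCC97H, all 3 members passed (adjusted p = 0.0252 for ETV1, 0.0366 for ETV4 and 0.0442 for ETV5), among 778 genes. The combination against AZD8055 gave -3.06 for ETV4, -2.26 for ETV1 and -2.20 for ETV5 (adjusted p = 0.161, 0.145 and 0.275), where again 0 genes were called lower (0%), with 1673 genes at an unadjusted p under 0.05 and 0 called by voom. ETV4 had the lowest estimate of all genes in this contrast.

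The combination against untreated cells, in which both drugs were added, lowered all 3 members. ETV4 fell by 2.67 (SE 0.65, limma adjusted p = 0.0131), ETV5 by 2.49 (SE 0.80, adjusted p = 0.0365) and ETV1 by 2.29 (SE 0.38, adjusted p = 0.00375). This contrast called 15.1% of all genes lower, and its values share the untreated libraries with those of the single drugs. Within the lines, the log2 ratios were -4.09, -1.72 and -2.27 for ETV4 in Hep3B, MHCC97H and Huh7, -3.41, -1.62 and -2.49 for ETV5 and -3.30, -1.32 and -2.32 for ETV1. All of them were past 2-fold, as were 6% of all genes in Hep3B, 4.72% in MHCC97H and 6.46% in Huh7. Without Huh7, none of the members passed in this contrast (adjusted p = 0.0718 for ETV1, 0.0945 for ETV4 and 0.178 for ETV5). The fit without Huh7 called 11 genes of the table, 0 of them lower, against 1744 lower with all lines.

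The size of the fall differed between the lines for ETV4. A limma F test of the compound #57 effect by cell line, again averaged over AZD8055, gave F = 57.2 with an adjusted p of 0.00509, and 4.9% of all genes were called. The fitted effect on ETV4 was largest in Hep3B with -5.04, against -2.14 for MHCC97H and -2.28 for Huh7. Without Hep3B the difference was no longer called (adjusted p = 0.828). For ETV5 the effects were -4.55, -1.34 and -1.93 (adjusted p = 0.0839) and for ETV1 -3.12, -1.74 and -1.86 (adjusted p = 0.0935), with Hep3B again the lowest of the lines, but neither passed. Hep3B and Huh7 had the same exposure time, while MHCC97H was exposed for less. The F test takes its error from the pairs within a line, which are not separate cultures of a condition.

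AZD8055 had no effect on the members that passed the test. Averaged over compound #57 absent and present, its effect was 0.49 on ETV4 (95% interval -0.54 to 1.51, limma adjusted p = 0.451), 0.11 on ETV5 (-1.15 to 1.38, adjusted p = 0.899) and -0.05 on ETV1 (-0.65 to 0.55, adjusted p = 0.907), while 27% of all genes were called. That share also rests on the lines in the fit, as 1 gene was called without Huh7 and 1844 and 1979 without Hep3B and MHCC97H, against 3115 with all lines. These intervals leave room for changes of more than 2-fold for ETV4 and ETV5, and the sign of the ETV5 estimate was not stable, with -0.028 when 10 was added, -0.17 with voom and -0.41 without Hep3B. That of ETV1 was 0.14 without Huh7. Against untreated cells alone, the values were 0.39, -0.30 and -0.03 (adjusted p = 0.725, 0.835 and 0.966), with 2.96% of genes called. These were 342 genes, against 1 without Hep3B, 0 without Huh7, 109 without MHCC97H and 2 when only the libraries compared were fitted.

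The lines went in different directions with AZD8055. In MHCC97H, ETV1 was 1.84-fold higher (log2 ratio 0.88, 0.58 to 1.19) and ETV4 1.65-fold (0.72, 0.58 to 0.86), with ETV5 at 0.15 (0.03 to 0.26). In Huh7, all were lower, ETV1 by 1.75-fold (-0.81, -1.06 to -0.56), ETV5 by 1.69-fold (-0.76, -0.87 to -0.64) and ETV4 by 1.21-fold (-0.28, -0.39 to -0.17). In Hep3B, ETV4 was 1.64-fold higher (0.72, 0.55 to 0.89), ETV5 was 1.22-fold lower (-0.29, -0.47 to -0.11) and the interval of ETV1 included 0 (-0.16, -0.34 to 0.02). No member reached 2-fold in any line, a size reached in either direction by 4.63% of all genes in Hep3B, 10.2% in MHCC97H and 8.41% in Huh7. The F test of the AZD8055 effect by cell line, averaged over compound #57, did not pass for ETV4 (adjusted p = 0.164), ETV1 (0.287) or ETV5 (0.304), with 5.03% of genes called. These were 581 genes, against 0 without MHCC97H, 805 without Hep3B and 410 without Huh7.

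When AZD8055 was added to compound #57, the averaged changes were 0.58 for ETV4, 0.53 for ETV5 and -0.07 for ETV1 (limma adjusted p = 0.605, 0.717 and 0.927), with 4.18% of genes called. These were 483 genes, against 1 without Hep3B, 0 without Huh7 and 331 without MHCC97H. The estimate for ETV5 turned to -0.042 with voom and -0.52 without Hep3B. ETV1 stayed within the counting error in every line, with log2 ratios of -0.13, -0.0025 and -0.07 in Hep3B, MHCC97H and Huh7. In Hep3B, ETV5 had 55 reads with the combination against 10 with compound #57 alone, which is 6.96-fold higher (log2 ratio 2.80, 1.81 to 3.94), and ETV4 had 29 against 14, 2.62-fold higher (1.39, 0.42 to 2.42). At least 2-fold higher in this pair of libraries were 2.68% of all genes. In MHCC97H and Huh7, ETV5 went the other way, with -0.70 (-0.90 to -0.50) and -0.35 (-0.58 to -0.12), while ETV4 was at 0.15 (-0.17 to 0.47) and 0.31 (0.06 to 0.56).

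On the log2 value scale, each member's change with both drugs was compared with what the changes with either drug add up to. In Hep3B, ETV5 lay 2.91 above this sum, the third highest of all genes, with 10 reads behind the value of compound #57 alone. ETV4 lay 0.58 above the sum and ETV1 0.03. In Huh7, the members lay above the sum as well, by 0.73 (ETV1), 0.59 (ETV4) and 0.41 (ETV5). In MHCC97H all lay below it, by -0.88 (ETV1), -0.84 (ETV5) and -0.57 (ETV4). Over the lines, the limma interaction was 0.83 for ETV5 (95% interval -1.71 to 3.36), 0.20 for ETV4 (-1.85 to 2.25) and -0.04 for ETV1 (-1.25 to 1.17), with an adjusted p of 0.9999 for each. This contrast called 0% of genes, with 178 genes at an unadjusted p under 0.05 and 0 called by voom, so that the combination was not shown to differ from the sum of its parts.

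Other genes of the pathway were read from lists, described here by counts and medians beside the median of 0.04 of all genes in the averaged effect of compound #57. In that effect, 3.34% of all genes were called lower and 6.92% higher, and with AZD8055 12.2% were called lower and 14.8% higher. Without Huh7, none of the listed genes passed for either drug, and without Hep3B none but ETV4 passed for compound #57. Among the ERK output genes, 13 of 16 were in the table, 10 fell, 0 rose and the median was -1.29. SPRY4 fell by 3.44 (limma adjusted p = 0.0291) and SPRY1 by 2.28 (adjusted p = 0.0181), both Sprouty inhibitors of receptor signaling. The early growth response factor EGR1 fell by 3.20 (adjusted p = 0.0339), though not with voom (-2.14, adjusted p = 0.112), and the ERK phosphatase DUSP6 by 2.95 (adjusted p = 0.0169). DUSP5, IER3, SPRED1, SPRY2, EPHA2 and SPRED2 fell by 0.88 to 1.51. The other three did not pass, cyclin D1 (CCND1) at -0.40, DUSP4 at 0.02 and PHLDA1 at 0.30. The median was -1.02 without Hep3B and -1.27 without Huh7. With AZD8055, DUSP4 rose by 1.23 (adjusted p = 0.0317), and 0 of the 13 were called without Hep3B.

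The effects on these genes were also read by line. EGR1 had effects of -5.98 in Hep3B, -3.38 in Huh7 and -0.26 in MHCC97H (limma F test by line, adjusted p = 0.00401), and in MHCC97H it was higher with the combination than with AZD8055 (log2 ratio 0.24, 0.11 to 0.37). In the same order, SPRY4 was at -5.65, -3.40 and -1.27 (adjusted p = 0.0787), SPRY1 at -3.83, -2.17 and -0.83 (adjusted p = 0.0140), and DUSP6 at -4.71, -2.15 and -1.98 (adjusted p = 0.110). The other genes of the list that passed did not all follow this order. SPRY2 was level in Hep3B (-1.79) and Huh7 (-1.80), as was DUSP5 (-2.02 in Hep3B), with -0.24 and -0.52 in MHCC97H, and EPHA2 was lowest in MHCC97H (-1.29, against -1.02 in Hep3B and -1.17 in Huh7, adjusted p = 0.599). The averages of DUSP4 and PHLDA1 hid opposite signs, as DUSP4 was at 1.20 in Hep3B, -0.01 in Huh7 and -1.14 in MHCC97H (adjusted p = 0.00894) and PHLDA1 at 0.89, 0.90 and -0.89 (adjusted p = 0.0360). SPRY4 had 3 reads in Hep3B with compound #57 against 565 in untreated cells.

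Of 25 other ETS factors, 13 were in the table, and their median was -0.02. ELK3, a ternary complex factor, fell by 0.79 (limma adjusted p = 0.0173), whereas the epithelial factor ELF3 rose by 0.92 (adjusted p = 0.00864) and ETS2 by 0.67 (adjusted p = 0.0430). With libraries centred on their medians, ETS2 no longer passed (adjusted p = 0.0565). ELK1 was at -0.29 (adjusted p = 0.0991), and the other factors, 9 in number, lay between the values of ELK1 and ETS2. With AZD8055, ETS1 (1.31, adjusted p = 0.0365) and ELF3 (0.63, adjusted p = 0.00350) rose, and 0 of the 13 fell. ETS1 differed between the lines, with 1.83 in Hep3B, 2.26 in Huh7 and -0.17 in MHCC97H (F test by line, adjusted p = 0.0344). When MHCC97H was left out, this test called 0 genes of the table. With voom, 1 of the 13 was called with AZD8055.

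Of the signaling chain from SHP2 to ERK, 18 genes were read, with a median of 0.09. PTPN11, which encodes SHP2, was at 0.01 (limma adjusted p = 0.940). The adaptor SHC1 fell by 0.85 (adjusted p = 0.0392), whereas the docking protein GAB1 rose by 0.75 (adjusted p = 0.0180) and the RAS exchange factor SOS1 by 0.69 (adjusted p = 0.0172). RPS6KA3, an ERK-activated kinase, was at -0.46 (adjusted p = 0.132). By line, RPS6KA3 was at -1.04 in Hep3B, -0.47 in Huh7 and 0.13 in MHCC97H (limma F test, adjusted p = 0.0187), and SHC1 at -1.68, -0.23 and -0.64 (adjusted p = 0.00709). With AZD8055, SOS2 (0.56, adjusted p = 0.0183) and SOS1 (0.40, adjusted p = 0.0322) rose, and the adaptor GRB2 (-0.23, adjusted p = 0.0451) fell. Without Hep3B or without MHCC97H, 1 gene of this list was called higher with AZD8055 and 0 lower. The calls with AZD8055, 3 of 18, are no larger a share than the 27% called of all genes.

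The genes that hold PEA3 factors down, at the level of transcription or of the protein, were 10 of 11 in the table, and with compound #57 none of these 10 passed by limma, although 3 had an unadjusted p under 0.05, a share close to the 31.3% of all genes (median 0.01). COP1 was at 0.25 (adjusted p = 0.0517, and 0.0449 with voom and 0.0489 among the 75% most abundant genes, where it passed), capicua (CIC) at 0.22 (adjusted p = 0.102), its partner ATXN1 at 0.40 (adjusted p = 0.222) and TRIB1, an adaptor of COP1, at -0.28 (adjusted p = 0.259). ATXN1 differed between the lines, with 1.19 in Hep3B, 0.22 in Huh7 and -0.20 in MHCC97H (limma F test by line, adjusted p = 0.0223). With AZD8055, DET1 rose by 0.51 (adjusted p = 0.0238) and ATXN1L by 0.26 (adjusted p = 0.0431), but 0 of the 10 passed when any 1 of the lines was left out, and 1 with centred libraries. These 2 of 10 are no larger a share than the 27% called of all genes.

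Of 14 genes reported elsewhere as PEA3 targets in other tissues, 6 were in the table. Of these 6, 0 were called lower with compound #57, while 1 lay below 0. With compound #57, the receptor ERBB2 rose by 0.57 (limma adjusted p = 0.0210). The matrix protease MMP14 was at 0.58 (adjusted p = 0.0596), vimentin (VIM) at 0.59 (adjusted p = 0.0826, but 0.0198 with voom) and the receptor MET at -0.40 (adjusted p = 0.135), with a median of 0.42 over the 6. With voom 2 of the 6, and without MHCC97H 3 of the 6, were called higher. The median was 0.19 with voom, 0.11 without Hep3B, 0.45 without Huh7 and 0.72 without MHCC97H. With voom and without Hep3B, 3 of the 6 lay below 0. MMP14 differed between the lines, with 1.07 in Hep3B, 0.63 in Huh7 and 0.035 in MHCC97H (limma F test by line, adjusted p = 0.0461). With AZD8055, VIM (0.93, adjusted p = 0.0113), ERBB2 (0.76, adjusted p = 0.00382) and MMP14 (0.64, adjusted p = 0.0251) rose, and 2 of the 6 genes were called without Hep3B and 0 without Huh7.

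**Figure D4:**
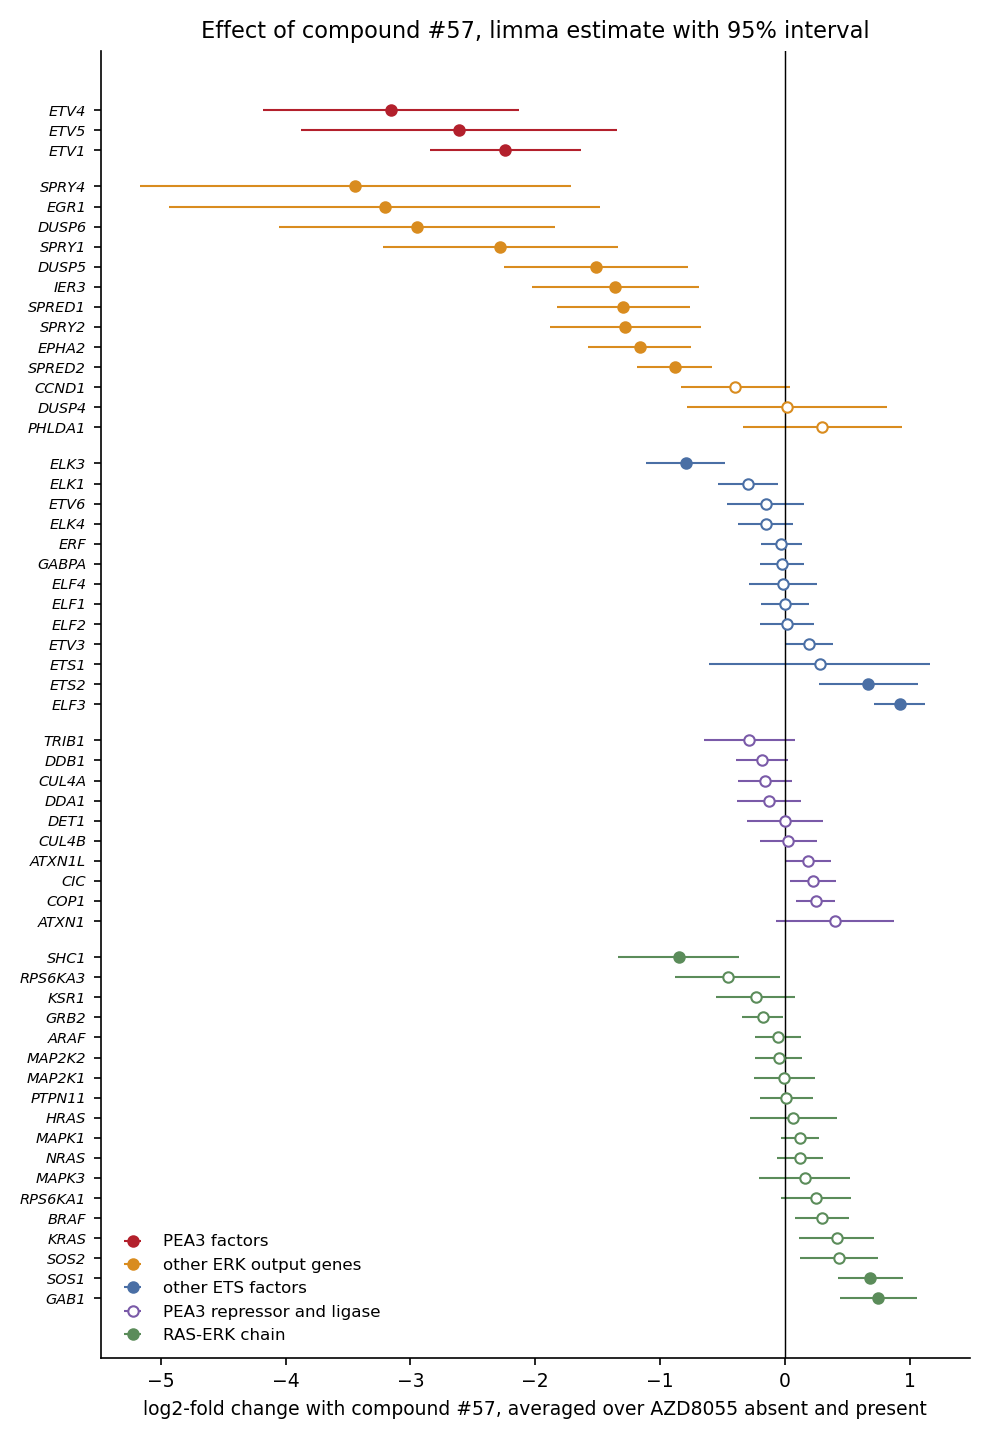
Log2-fold change with compound #57, averaged over AZD8055 absent and present, for the PEA3 factors and 4 lists of related genes, as limma estimates with 95% intervals. Filled points had an adjusted p under 0.05. Intervals and p-values count both pairs of a line as separate replicates. The 3 PEA3 factors (-3.16 to -2.24) and 10 of 13 ERK output genes lie left of 0 with filled points, and most genes of the other lists lie near 0.

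The genes whose pattern was most like that of a member were found by Pearson's r of log2 values centred within each line, over 12 libraries and 11243 genes with reads in all of them. For ETV1 these were PIH1D1 (0.970), NT5E (0.968), ITGA2 (0.967), HMGA2 (0.966) and YAP1 (0.963). For ETV4 they were PLXNA2 (0.979), DUSP6 (0.975), SPRY1 (0.970), ABI2 (0.967) and ETV1 (0.962). For ETV5 they were ABI2 (0.990), DUSP6 (0.974), SPRY4 (0.972), THADA (0.970) and CTU2 (0.968). Among the members, r was 0.962 between ETV1 and ETV4, 0.956 between ETV4 and ETV5 and 0.898 between ETV1 and ETV5. The points share libraries and the strong fall in Hep3B. By Spearman's rho, 1 of the 5 genes of ETV1, 0 of those of ETV4 and 1 of those of ETV5 were again among the first 5, so that the names depend on the measure.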

How the data were processed

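RNA of 12 cultures was sequenced by the authors, with TruSeq libraries labelled as polyA-selected and stranded and reads aligned to hg38. The aligner, the counting and the normalization are not given in the sources used here. The authors deposited 1 table of log2 values per gene and library. From 2 raised to the log2 value, 2 raised to 0.001 was taken off. In 100% of values, this gave a whole multiple of 1 step within a tolerance of 0.01. Each value was thus taken for the log2 of 1 plus the reads of a gene per 10000000 reads, and 0.001 for 0 reads. Whole reads were recovered from them. The table held 11548 genes, 305 of them with a 0 in at least 1 library, 18 with names turned into dates and 4 names on 2 lines each. COP1 was held under the older symbol RFWD2.

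limma 3.58.1 (R 4.3.3) was fitted to the log2 values of all genes with cell line and treatment as terms (eBayes with trend), and p-values were adjusted by Benjamini-Hochberg over 11548 genes with a threshold of 0.05. Libraries of a cell line form the pairs. The F tests by line used cell line by drug terms without a term of drug by drug. Nothing in the labels describes separate cultures of a condition. Outside the F tests by line, p-values rest on how far treatment changes differed between the 3 lines, pooled over all treatments (6 residual degrees of freedom). For the averaged effects, both pairs of a line thereby count as separate replicates. Their intervals and p-values can therefore be too narrow or too small where the effect differs between lines. Those F tests have 3 residual degrees of freedom and take their error from the pairs within a line. A gene of the signaling chain is not reported here. The members and lists were chosen with earlier results of these data known. Named were the members, list genes called in an averaged effect, the 4 of each list with the largest averaged effect of compound #57, and the 5 genes most like each member. Genes of the 6 pairs were named after their values were seen. Alternatives were a pseudocount of 10 for that of 1, a test of the 75% most abundant genes, centred libraries, voom, no cell line term, only the libraries compared, a fold of 1.5, Spearman's rho and each line left out. The calculations were tested on simulated data in which compound #57 had the same effect in every line. That test does not cover effects that differ between lines. Scripts ran in Python 3.11.15 (pandas 2.3.3, numpy 2.4.6, scipy 1.17.1), and figures were drawn with matplotlib 3.10.9.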

Additional observations from a re-analysis of the deposited data

Results flagged for a closer look

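The effect of compound #57 on ETV4 differed between the cell lines (limma F test, adjusted p = 0.00509), with the strongest fall in Hep3B. Without Hep3B the difference was no longer called. In Hep3B, ETV4 had 14 reads with compound #57 and 29 with the combination. The test takes its error from the pairs within a line, not from separate cultures.

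With AZD8055 against untreated cells, the members went in opposite directions in different lines, and with 1 pair of libraries per line these differences were not tested. The log2 ratio of reads of ETV1 was 0.88 in MHCC97H and -0.81 in Huh7. For ETV4, Hep3B and MHCC97H had 0.72 each and Huh7 had -0.28. For ETV5, MHCC97H had 0.15, whereas Hep3B had -0.29 and Huh7 -0.76.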

How the results depend on the processing

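The direction of the averaged effect of compound #57 on the members was the same under every alternative run, with ETV1 outside the 75% most abundant genes and so not tested there. Without a term for cell line, the changes stayed at -2.24 (ETV1, limma adjusted p = 0.570), -3.16 (ETV4, 0.943) and -2.61 (ETV5, 0.9996), and 0 genes and 0 members were called. Leaving out 1 line at a time, which leaves fewer samples, gave -2.49 to -1.80 for ETV1, -3.66 to -2.21 for ETV4 and -3.24 to -1.64 for ETV5, with 0 (without Huh7) to 2359 (without MHCC97H) genes and 0 to 3 members called. For the effect by line, the same gave 53 (without MHCC97H) to 769 (without Huh7) genes, 0 to 1 members and an adjusted p for ETV4 of 0.00727 to 0.828. The lines being the only replicates, leaving out MHCC97H also raised the count of genes called with compound #57 against untreated cells from 1 to 778. With 1.5-fold in place of 2-fold, 2 member changes were lower and 3 higher with AZD8055 (0 at 2-fold in either direction). With centred libraries, 1604 genes were lower in 6 pairs (1058 as deposited). With 10 added to the scaled reads, ETV4 and ETV5 in Hep3B changed by -4.44 and -4.89 with compound #57. Of the 245 limma values of members, 215 kept their direction and side of the threshold, 4 passed in addition, 15 no longer passed and 11 changed sign, none of them past the threshold. The averaged AZD8055 effect on ETV5 (0.11) was -0.028 with 10 added, -0.17 with voom and -0.41 to 0.45 with a line left out, and that on ETV1 (-0.05) was -0.29 to 0.14 with a line left out. AZD8055 against untreated on ETV1 (-0.03) was -0.48 to 0.36 with a line left out. The combination against compound #57 on ETV5 (0.53) was -0.042 with voom and -0.52 to 1.14 with a line left out. The interaction was 0.035 with voom and -0.42 to 0.38 with a line left out for ETV1 (-0.04), and -0.22 to 1.66 for ETV5 (0.83). The cause of these changes was not tested. Low reads (10 to 55 for ETV4 and ETV5 in Hep3B with compound #57) limit the precision of the largest falls.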
